A study of Homo sapiens with 6 samples.

Results

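The Hippo pathway genes described here are the coactivators YAP1 and WWTR1 (which encodes TAZ), the TEAD1 to TEAD4 transcription factors, the kinases LATS1 and LATS2, and the adaptors NF2 and AMOT. They were taken by gene name from both deposited tables, which held all 10 of 10 members among 19922 shared genes, and all 10 passed the minimum count for testing, which 13629 genes reached. By its title and design text the study concerns the role of UBE2A and UBE2B in how cells sense force and contact. UBE2A and UBE2B are ubiquitin-conjugating enzymes, the human RAD6 proteins. The cells were HEK293A, a subline of the human embryonic kidney line HEK293. The 3 knockdown libraries came from cells given siRNAs against UBE2A and UBE2B together for 48 h (25 uM of each as the labels write it), and the 3 control libraries from cells given vehicle for 48 h. No non-targeting siRNA was in the control, so an effect of siRNA in general cannot be told apart from the loss of the targets. The labels do not state separate cultures for the replicates. The p-values therefore reflect the spread among 6 libraries, part or all of which may be technical.

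In the Hippo pathway the kinases STK3 and STK4, held by the scaffold SAV1, activate LATS1 and LATS2. LATS kinases phosphorylate YAP and TAZ, which are then retained in the cytoplasm by YWHA proteins or degraded. Unphosphorylated YAP and TAZ enter the nucleus and bind TEAD factors, since they have no DNA-binding domain of their own. NF2, known as merlin, brings LATS to the membrane, and AMOT binds YAP and TAZ outside the nucleus. The pathway is known for its response to cell density, matrix stiffness and tension, and much of that control acts on protein phosphorylation and location, which RNA levels do not show.

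Replicates 1 and 2 of each group were deposited in a first table. The second table added 1 library per group, whose columns carry no replicate number. Its knockdown column is headed siRAD6. That column was taken as the UBE2A and UBE2B knockdown by inference, since RAD6 names both proteins. Totals ran from 10887217 to 14564624 counted reads, and 3 reads correspond to 0.206 to 0.276 CPM (reads scaled to a common library total). The tables differed in 38.2% of genes tested (edgeR adjusted p under 0.05), so the table was a term of the fit. Since these are bulk libraries, fewer cells expressing a gene and less RNA per cell cannot be told apart. UBE2A fell by 47.4% (log2 fold change -0.93, standard error 0.07, edgeR adjusted p = 1.64e-12) and UBE2B by 18.8% (-0.30, 0.07, adjusted p = 0.0128). Both knockdowns were partial. The UBE2B call ended when control replicate 2 (adjusted p = 0.0757), knockdown replicate 1 (0.103), or the control (0.183) or knockdown (0.190) of the second table was left out. With the table term, leaving out either library of the second table leaves only the first table to compare the groups. Of the HEK293 markers, KRT8 (855 to 1226 CPM), KRT18, VIM, NEFL, CDH2 and LIN28B were well detected, while INA, NEFM and PAX2 stayed below 5 CPM. Of the 9 markers 8 were tested, and 4 fell with YAP1 and TEAD4 and 0 rose: LIN28B (log2 fold change -0.56, edgeR adjusted p = 1.57e-06), KRT18 (-0.34, 2.92e-04), KRT8 (-0.31, 5.55e-04) and NEFL (-0.22, 0.0382). The share of all genes tested that passed was 1.83% in the lower direction and 2.47% in either. The level summed over all 9 markers was 1850 to 2066 CPM in the controls and 1440 to 1852 CPM after knockdown. KRT8 was the largest part of that sum. The part of the markers' fall in the members' changes was not tested. The leukocyte marker PTPRC had no read, PECAM1 and ALB stayed under 0.31 CPM, MYH11 was at 3.75 to 5.86 CPM and COL1A1 at 26.5 to 46.0 CPM.

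After knockdown YAP1 and TEAD4 fell, and the other 8 members did not pass the test. Over all genes tested, 1.83% passed in the lower direction and 2.47% in either, against 2 lower members of 10 and 0 higher. The same 2 members had groups that did not overlap, against 7.7% of all genes. The median log2 fold change of the members was -0.06, and that of all genes 0.00. Without the table term edgeR called 0% of genes, with 327 of 13629 at an unadjusted p under 0.05, and YAP1 and TEAD4 were the 2 members at that level.

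Sequence from YAP1 and LATS2 is shown first because their promoter windows hold GGAATG, the letters of the core TEAD site. Windows from 250 bases before to 50 after a RefSeq start (GRCh38.p14) were matched for 8 members, some with more than 1 start; TEAD1 and TEAD4 had none. The letters GGAATG, searched on both strands, occurred once in the YAP1 window (chr11:102110197-102110496, plus strand) and once in the LATS2 window (chr13:21061537-21061836, minus strand), and in none of the other members' windows. Of 35116 promoter windows in the reference, 14.0% hold these letters, so a match is not particular to these genes. A match is only a description of the letters. The capitals mark GGAATG.

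YAP1 promoter: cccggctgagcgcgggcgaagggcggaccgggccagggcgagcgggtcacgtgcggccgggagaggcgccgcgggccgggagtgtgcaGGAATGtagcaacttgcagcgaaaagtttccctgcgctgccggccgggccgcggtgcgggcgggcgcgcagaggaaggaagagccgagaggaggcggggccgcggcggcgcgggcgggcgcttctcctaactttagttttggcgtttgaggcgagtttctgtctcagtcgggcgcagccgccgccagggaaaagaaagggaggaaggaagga
LATS2 promoter: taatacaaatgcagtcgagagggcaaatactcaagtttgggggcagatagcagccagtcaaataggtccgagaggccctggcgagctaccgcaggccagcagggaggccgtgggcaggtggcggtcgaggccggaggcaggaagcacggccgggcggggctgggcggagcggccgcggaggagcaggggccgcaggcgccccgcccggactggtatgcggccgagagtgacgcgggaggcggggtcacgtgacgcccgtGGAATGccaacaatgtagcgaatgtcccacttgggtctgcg

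Also shown are 2 stretches of the YAP1 3′ UTR, because they carry an octamer that earlier results of these data tied to lower genes. In the longest annotated 3′ UTR of each gene (GENCODE release 29, sense strand only), ATGAATTA was present in 26.9% of the 249 genes that fell, in 2.30% of the 87 that rose and in 5.87% of 13532 genes tested with a UTR. The octamer was chosen on these data, so these shares are a description. Of all 794 tested genes with the octamer, 67 fell, with a median log2 fold change of -0.32 in those 67. Over all 794 the median was -0.04. In the 84 genes with 2 or more sites, as in YAP1, the median was also -0.04. Median 3′ UTR length was 2044 bases in the genes that fell, 1879 in those that rose and 1383 in all. Among the 10 members YAP1 alone held it, at 2 places in 3483 bases of 3′ UTR on chromosome 11 (GRCh38, plus strand). TEAD4, with 195 bases of annotated 3′ UTR, held none. The siRNA sequences were not analysed here. The octamer is in capitals.

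YAP1 site 1, chr11:102231625-102231654: acaaaacgagcATGAATTAactcttcaata
YAP1 site 2, chr11:102232112-102232141: aaattgggtatATGAATTAcatagcatgtt

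YAP1 (ENSG00000137693, chromosome 11, 102110447 to 102233424 on hg38, plus strand), the coactivator held in check by LATS kinases, was lower after knockdown. Its level was 144 and 149 CPM in control replicates 1 and 2 and 162 CPM in the second table's control. It was 116 and 132 CPM in knockdown replicates 1 and 2 and 136 CPM in the second table's knockdown. The groups did not overlap, though the highest knockdown and the lowest control library came from different tables and were close. The means were 152 ± 9.35 and 128 ± 10.6 CPM (SD, n = 3). The log2 fold change was -0.24 (standard error 0.06, edgeR adjusted p = 0.0120, 95% interval -0.36 to -0.13), so YAP1 fell by 15.6%. Within the tables it was -0.24 in the first and -0.26 in the second. DESeq2 and limma-voom with the table term also passed YAP1 (adjusted p = 0.0254 and 0.0110). The edgeR call ended when any of 4 libraries was left out: control replicate 2 (adjusted p = 0.118), knockdown replicate 1 (0.203), and the control (0.112) and knockdown (0.121) of the second table. Leaving out either library of the second table gives in effect the same comparison, that of the first table.

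WWTR1 (ENSG00000018408, chromosome 3, 149517235 to 149736714, minus strand) encodes TAZ, the paralogue of YAP. It was at 66.5 and 75.3 CPM in control replicates 1 and 2 and 67.2 CPM in the second table's control, and at 69.3, 62.9 and 68.8 CPM in the knockdown libraries in the same order. The groups overlapped in part, between 66.5 and 69.3 CPM. The log2 fold change of -0.06 had a 95% interval from -0.20 to 0.08 (edgeR adjusted p = 0.778), that is, from 12.9% lower to 5.93% higher.

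**Figure D1:**
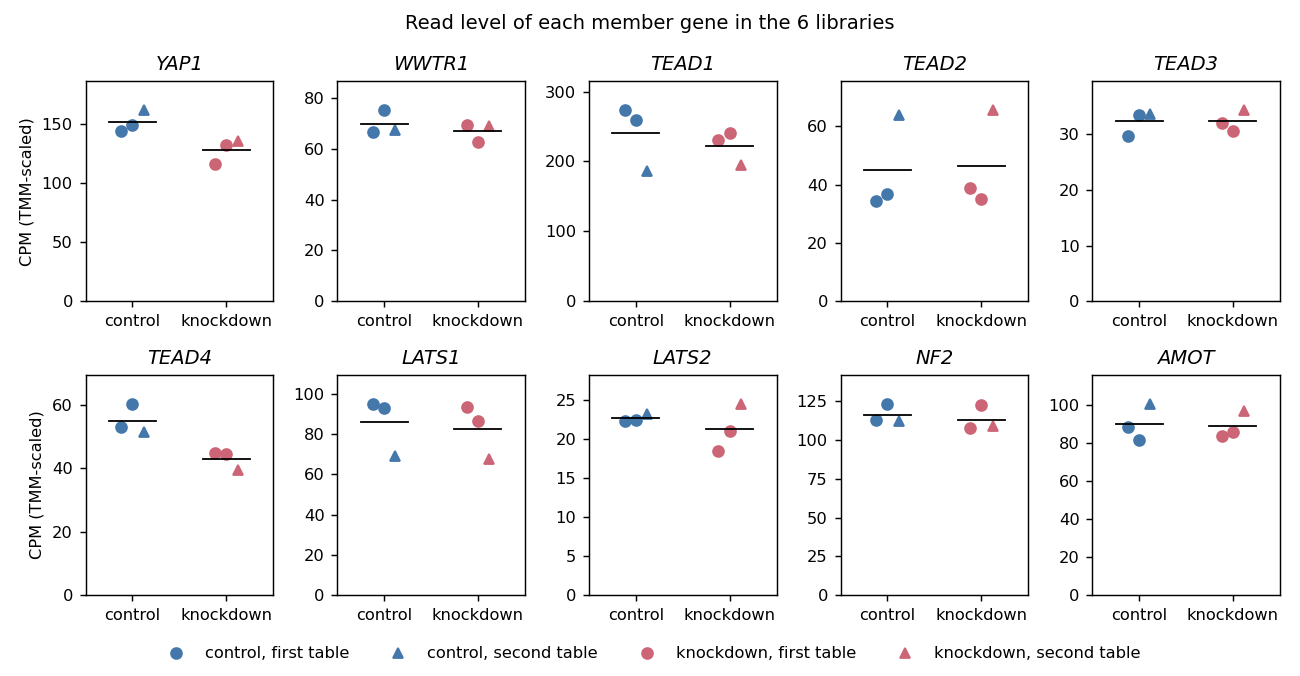
Level of each of the 10 members in CPM with TMM scaling (vertical axes, linear, from 0) for the 3 control and 3 knockdown libraries; circles are the first table, triangles the second, and bars the group means. The control and knockdown points of YAP1 and TEAD4 do not overlap. TEAD1, TEAD2, LATS1 and AMOT separate by table, and TEAD3 and LATS2 do so more narrowly.

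TEAD4 (ENSG00000197905, chromosome 12, 2959330 to 3040676, plus strand), a TEAD family transcription factor, had the largest change in size of the 10. It was at 53.1 and 60.4 CPM in control replicates 1 and 2 and 51.4 CPM in the second table's control. In the knockdown it was at 44.8 and 44.7 CPM in replicates 1 and 2 and 39.6 CPM in the second table. Each knockdown library lay below each control library. The means were 55.0 ± 4.78 and 43.0 ± 2.97 CPM (SD, n = 3), and TEAD4 fell by 21.7% (log2 fold change -0.35, standard error 0.08, edgeR adjusted p = 0.00482). The 95% interval of the log2 fold change was -0.51 to -0.20, and the within-table values were -0.34 and -0.38. DESeq2 and limma-voom with the table term gave adjusted p = 0.0151 and 0.00621. The edgeR call ended without control replicate 2 (0.118) and missed the threshold when the control (0.0562) or knockdown (0.0602) of the second table was left out.

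The other TEAD factors did not pass. TEAD1 (ENSG00000187079, chromosome 11, 12674421 to 12944737, plus strand) was at 274 and 259 CPM in control replicates 1 and 2, 187 CPM in the second table's control, and 231, 240 and 195 CPM in the knockdown libraries. Both first-table knockdown libraries lay below both first-table controls, while in the second table the knockdown was the higher. Its log2 fold change was -0.10 (95% interval -0.21 to 0.01, edgeR adjusted p = 0.420), from within-table values of -0.18 and 0.06. TEAD1 was the 1 member of 10 with an unadjusted p under 0.05 for a difference of the change between tables (0.0463, edgeR adjusted p = 1.00). That term was called in 0 members and in 0.00734% of all genes, with 628 of 13629 at an unadjusted p under 0.05.

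TEAD2 (ENSG00000074219, chromosome 19, 49340595 to 49362457, minus strand) was at 34.4 and 36.7 CPM in control replicates 1 and 2, 64.0 CPM in the second table's control, and 38.9, 34.9 and 65.7 CPM in the knockdown libraries. The second table stood far above the first in both groups. The log2 fold change after knockdown was 0.05 (95% interval -0.11 to 0.21, edgeR adjusted p = 0.843). TEAD3 (ENSG00000007866, chromosome 6, 35473597 to 35497079, minus strand) ranged from 29.7 to 34.3 CPM over the 6 libraries, with a log2 fold change of 0.00 (95% interval -0.18 to 0.18, edgeR adjusted p = 0.999). A change of TEAD3 beyond about 13.2% upward or 11.6% downward is outside that interval.

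The LATS kinases, which phosphorylate YAP and TAZ, overlapped between the groups. LATS1 (ENSG00000131023, chromosome 6, 149658153 to 149718105, minus strand) had control levels of 95.3, 93.3 and 69.2 CPM and knockdown levels of 93.3, 86.7 and 67.5 CPM, the second table given last. It was lower in the second table in both groups. Its log2 fold change was -0.06 (95% interval -0.18 to 0.07, edgeR adjusted p = 0.748). LATS2 (ENSG00000150457, chromosome 13, 20973036 to 21061586, minus strand), also known as a YAP target gene, had control levels of 22.3, 22.4 and 23.3 CPM and knockdown levels of 18.5, 21.0 and 24.6 CPM. The knockdown libraries lay on both sides of the controls. It had the fewest reads of the members (257 to 324 per library) and the widest interval, -0.31 to 0.11 around -0.10 (edgeR adjusted p = 0.737).

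The adaptors NF2 and AMOT were also without a call. NF2 (ENSG00000186575, chromosome 22, 29603556 to 29698598, plus strand) had control levels of 113, 123 and 112 CPM and knockdown levels of 108, 123 and 109 CPM. The groups overlapped, and its log2 fold change was -0.04 (95% interval -0.16 to 0.09, edgeR adjusted p = 0.852). AMOT (ENSG00000126016, chromosome X, 112774503 to 112840831 in the first table, minus strand) had control levels of 88.3, 81.7 and 101 CPM and knockdown levels of 83.9, 85.7 and 96.8 CPM. The groups overlapped. Its log2 fold change was -0.02 (95% interval -0.15 to 0.10, edgeR adjusted p = 0.920). Its gene model has 8518 bases in the first table against 8576 in the second, the sole length difference among the members.

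**Figure D2:**
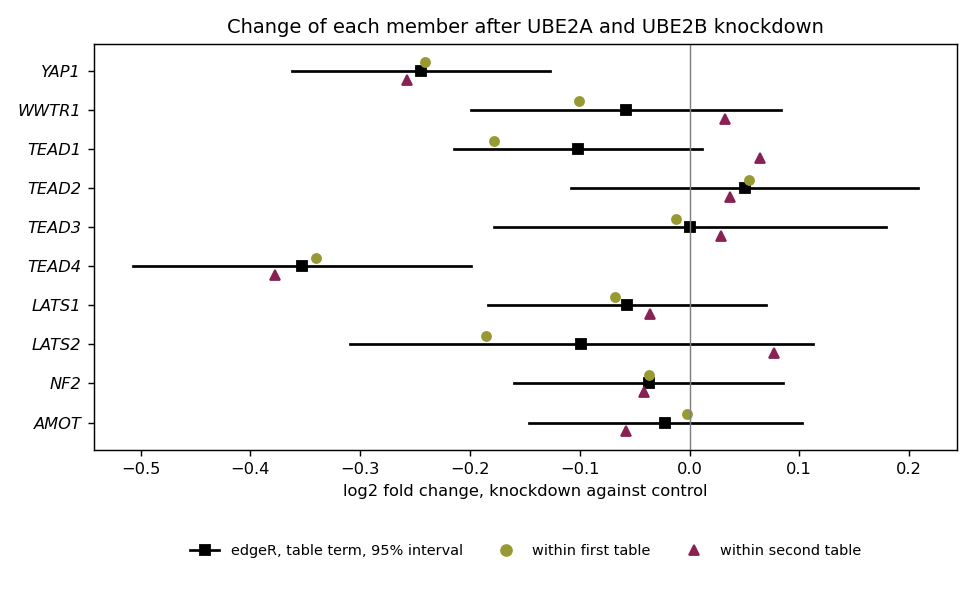
Log2 fold change of each member, knockdown against control (horizontal axis), from edgeR with the table term (squares, bars are 95% intervals), with the differences within the first (circles) and second (triangles) table. The intervals of YAP1 (-0.36 to -0.13) and TEAD4 (-0.51 to -0.20) lie below 0, and those of the other 8 members include 0.

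Compared between genes, levels have to be taken per length, and the deposited FPKM (reads scaled by gene length and library total) serve for this. In the controls the order of mean FPKM was TEAD4 (24.0 ± 1.91), YAP1 (23.8 ± 1.51), TEAD1 (22.3 ± 4.30), NF2 (15.6 ± 0.75), TEAD2 (15.0 ± 5.55), AMOT (10.5 ± 1.14), TEAD3 (10.5 ± 0.69), LATS1 (10.0 ± 1.68), WWTR1 (8.28 ± 0.52) and LATS2 (4.01 ± 0.10; SD, n = 3 each). Neighbours in that order had overlapping control ranges except TEAD1 against NF2 and WWTR1 against LATS2. These FPKM were computed by library, and the second table is set beside the first without a common scaling. TEAD4 stood above 86.9% of the tested genes by control FPKM, and LATS2 above 39.9%.

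YAP1 was the main coactivator transcript. It made up 74.1%, 72.4% and 76.1% of the reads per base of YAP1 and WWTR1 in control replicates 1 and 2 and the second table's control, and 68.9%, 73.6% and 72.3% in the knockdown libraries. The lowest share was in knockdown replicate 1, and the groups overlapped. The means were 74.2 ± 1.88% and 71.6 ± 2.44% (SD, n = 3; exact two-sided permutation p = 0.2, 0.44 adjusted over 11 shares and ratios). With 3 against 3 libraries p cannot go below 0.1. The permutations ran over all 6 libraries without the table, so differences between the tables add to the spread they measure. The 11 quantities partly repeat one another, as a share and a ratio of the same pair do. The log2 ratio of YAP1 to WWTR1 reads differed by -0.19 between knockdown and control, and by -0.14 and -0.29 within the first and second table, so a fall of YAP1 relative to WWTR1 was not shown beyond the spread.

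Per base of gene length, no TEAD gene made up most of the family. Without division by length TEAD1 had the most reads, 2103 to 3977 per control library against 379 to 805 for the others. The gene models have 10700 bases for TEAD1 and 2275 for TEAD4. In the controls TEAD4 took 33.4 ± 2.36% of the family's reads per base, TEAD1 31.1 ± 6.37%, TEAD2 20.9 ± 7.55% and TEAD3 14.6 ± 0.69% (SD, n = 3). TEAD4's share was 33.2%, 35.9% and 31.1% among controls, against 30.4%, 30.8% and 25.2% after knockdown, the second table last. Each knockdown library lay below each control library, a mean difference of -4.62 percentage points (-3.97 and -5.90 within the tables). It was -2.84 points when the knockdown library of the second table was left out, and -2.30 as a share of reads with no division by length. TEAD3's share was higher by 1.43 points in the knockdown, from 13.9% to 15.2% among controls and 15.7% to 16.3% after knockdown, beside a log2 fold change of 0.00 in its own level. With no division by length the TEAD3 difference was 0.66 points (exact two-sided permutation p = 0.4). Per base, both shares had the smallest exact two-sided permutation p the design allows (0.1, or 0.367 adjusted over the 11). Shares of a family add up to the whole, so a lower TEAD4 share goes with a higher summed share of the other TEAD genes. The TEAD3 and TEAD4 differences are therefore not independent. The log2 ratios of TEAD4 reads to those of TEAD1, TEAD2 and TEAD3 differed by -0.26, -0.40 and -0.35 (exact permutation p = 0.3, 0.5 and 0.1). Within the first and second table the differences were -0.16 and -0.44 against TEAD1. They were -0.39 and -0.41 against TEAD2, and -0.33 and -0.41 against TEAD3. The shares of TEAD1 and TEAD2 overlapped between the groups (exact permutation p = 0.9 and 0.5). For TEAD2 the overlap was across tables only. Its share was higher after knockdown by 2.74 points within the first table and 2.36 within the second. TEAD1's share differed by -0.35 and 2.41 points.

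LATS1 exceeded LATS2, with 73.8%, 73.3% and 66.3% of the pair's reads per base among controls, against 77.0%, 73.2% and 64.5% after knockdown. The second table held the lowest share in both groups. The knockdown minus control difference was 0.41 percentage points (exact permutation p = 1.00), with within-table values of 1.51 and -1.77.

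**Figure D3:**
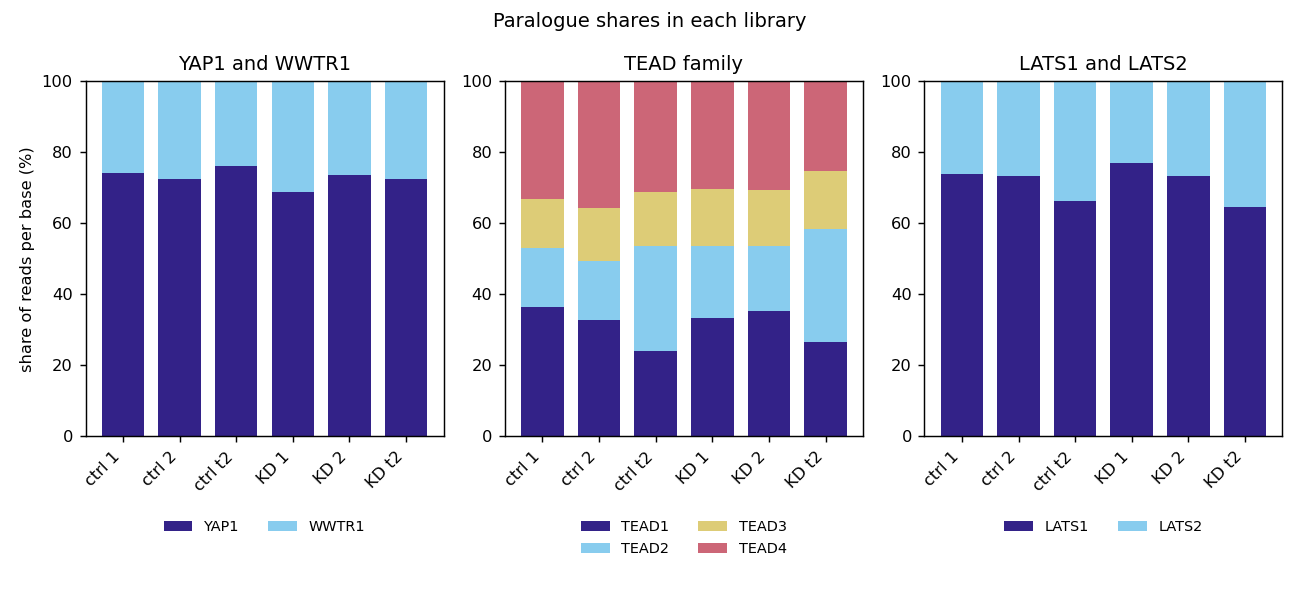
Share of reads per base of gene length (percent, stacked) for YAP1 and WWTR1, the TEAD family, and LATS1 and LATS2 in each library (ctrl, control; KD, knockdown; t2, second table). YAP1 takes 68.9% to 76.1% of its pair, TEAD4 takes less in all 3 knockdown libraries than in any control, and TEAD2 takes 29.6% and 32.0% in the second table against at most 20.2% in the first.

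Several members differed more between the tables than between the groups. In the second table TEAD2 was higher (log2 difference 0.84, standard error 0.08, edgeR adjusted p = 4.82e-11) and AMOT was higher (0.22, 0.07, adjusted p = 0.00717). LATS1 (-0.43, 0.07, adjusted p = 3.30e-06) and TEAD1 (-0.39, 0.06, adjusted p = 1.99e-06) were lower. With 4 of 10 members against 38.2% of all genes, the members' share is that of the background. The AMOT call ended without the second table's control (0.115). TEAD1's share of the TEAD reads per base was 32.7% to 36.5% in the first table, and 24.0% in the control and 26.5% in the knockdown library of the second. TEAD2's share was 16.4% to 20.2% in the first table against 29.6% and 32.0%. Gene lengths of TEAD1, TEAD2 and LATS1 were equal in both tables. In GENCODE, CD37, which lies on the opposite strand, overlaps 10.7% of the exonic bases of TEAD2; it had 82 to 182 reads against 453 to 725 for TEAD2. Reads from overlapping genes cannot be assigned with the counting's strand setting unknown. Annotated antisense genes also cover 9.97% of the exonic bases of YAP1, 9.45% of WWTR1 and 4.72% of LATS1, and their part in the counts was not tested.

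**Figure D4:**
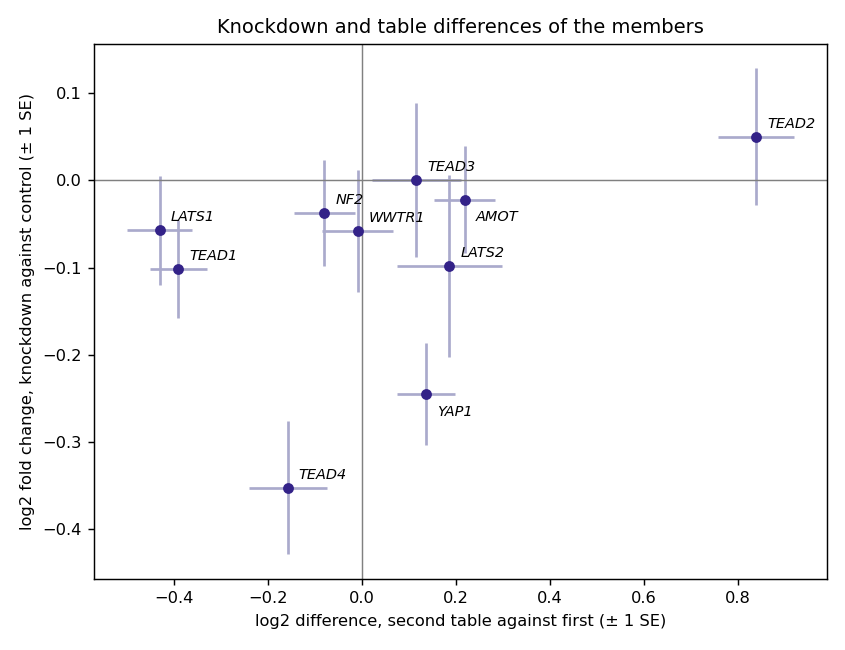
Log2 difference of the second table against the first (horizontal) and log2 fold change of knockdown against control (vertical) for the 10 members, with bars of 1 standard error, from the same edgeR fit. TEAD2 at 0.84 and LATS1 at -0.43 lie farthest apart along the table axis, and TEAD4 at -0.35 and YAP1 at -0.24 lowest along the knockdown axis.

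Of 73 other pathway genes, listed with earlier results known, 71 were tested, 4 fell and 0 rose by edgeR (6 lower and 3 higher at an unadjusted p under 0.05). The called share was 5.63%, against 1.83% lower and 2.47% in either direction over all genes tested. Their median log2 fold change was -0.03, and that of all genes 0.00. WWC2, a relative of the upstream scaffold KIBRA, was at 110 and 111 CPM in control replicates 1 and 2 and 72.9 CPM in the second table's control, against 74.7, 90.7 and 57.5 CPM in the knockdown libraries. The knockdown was lower in each table, although the groups overlapped across tables. Its log2 fold change was -0.40 (standard error 0.07, edgeR adjusted p = 1.96e-04). AMOTL2, a paralogue of AMOT that is also a YAP target gene, went from 99.5, 101 and 89.2 CPM in the 3 controls to 66.3, 84.1 and 71.8 CPM after knockdown, with no overlap. Its log2 fold change was -0.38 (0.07, adjusted p = 5.56e-04), beside -0.02 for AMOT and -0.04 for AMOTL1. AJUBA, a LIM protein that inhibits LATS and is likewise a target, had -0.43 (0.08, adjusted p = 6.31e-04). RUNX1, a transcription factor reported to act with TEAD and YAP, had -0.47 (0.10, adjusted p = 0.00546), and its call ended without control replicate 2 (0.0595) or knockdown replicate 1 (0.136).

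The core kinases and their partners, STK3, STK4, SAV1, MOB1A and MOB1B, had 0 calls among 5 (0 at an unadjusted p under 0.05), with log2 fold changes from -0.07 to 0.04. MOB1A, a LATS activator and the most abundant of them at 213 CPM on average, had -0.07. Of 11 upstream kinases 0 passed (0 at an unadjusted p under 0.05), and MAP4K4 had 0.08. Of 14 membrane and junction regulators 2 fell, WWC2 and AMOTL2, and 1, FAT4, was higher at an unadjusted p under 0.05 (0.17). The giant cadherin FAT1 had -0.06. Of 3 LATS inhibitors AJUBA fell. In STRIPAK, the phosphatase complex that opposes STK3 and STK4, 0 of 11 passed (0 at an unadjusted p under 0.05), with -0.02 for its scaffold PPP2R1A. Of 10 genes of YAP and TAZ retention or turnover 0 passed and 2 were lower at an unadjusted p under 0.05, and YWHAZ had -0.08. Of 6 ubiquitin ligases of LATS or AMOT 0 passed (0 at an unadjusted p under 0.05), with -0.01 for ITCH. RUNX1 was the 1 of 7 TEAD cofactors to fall, and 2 were higher at an unadjusted p under 0.05, VGLL4 (0.27) and ARID1A (0.12). The chromatin remodeller SMARCA4 had 0.02. Of 4 RASSF genes 0 passed (0 at an unadjusted p under 0.05), and RASSF5 had 0.12. DESeq2 with the table term called 4 of the 71.

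**Figure D5:**
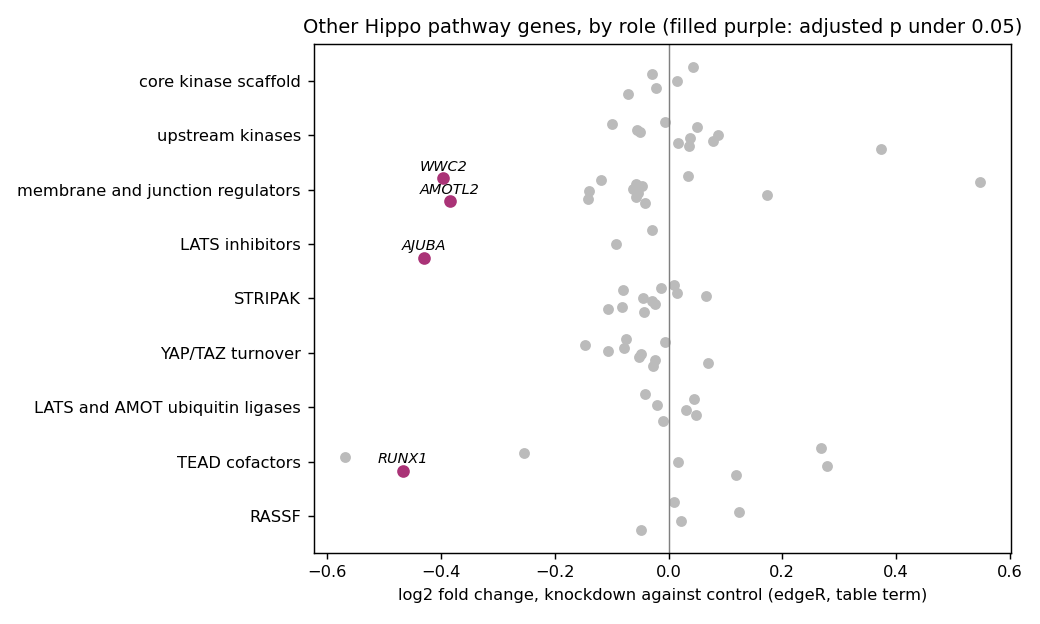
Log2 fold change, knockdown against control (horizontal), of the 71 tested genes of the wider pathway list in 9 role groups, from edgeR with the table term; purple points passed an adjusted p of 0.05. WWC2, AMOTL2, AJUBA and RUNX1 are the 4 that passed, all below 0.

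Of 22 YAP and TEAD target genes 9 fell and 0 rose by edgeR, or 40.9% against 1.83% lower and 2.47% in either direction over all genes tested. The list, recalled from a published one with earlier results known, includes LATS2 and shares AMOTL2, AJUBA and PTPN14 with the wider list. Groups did not overlap in 2 of the 22, AMOTL2, which was lower, and AXL, which was higher, against 7.7% of all genes. The median log2 fold change of the 22 was -0.16. AXL was the 1 gene higher at an unadjusted p under 0.05 (log2 fold change 0.52, edgeR adjusted p = 0.199). ANKRD1 had -0.95 (standard error 0.12, adjusted p = 1.67e-06), CCN2 -0.74 (0.08, adjusted p = 1.67e-07) and CCN1 -0.58 (0.08, adjusted p = 3.32e-06). DESeq2 with the table term did not pass ANKRD1 (adjusted p = 0.150). ANKRD1's log2 fold change ran from -1.39 to -0.63 over 14 alternatives. With the second table last, it was at 166, 149 and 29.9 CPM in the controls and 53.6, 109 and 15.8 CPM after knockdown. The groups of ANKRD1, CCN1 and CCN2 overlapped across tables.

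The genes most like YAP1 over the 6 libraries, by Pearson's r of log2 CPM after each table's mean was removed, were RBBP9 (r = 0.9999), SLC1A5 (0.999) and FNDC3B (0.999). For TEAD4 they were BPNT2 (0.999), GSKIP (0.998) and MRPS30 (0.997). With 6 libraries such values are common: 758 and 612 of 10239 genes had r above 0.9 with YAP1 and TEAD4. YAP1 and TEAD4 had r = 0.895 with each other, WWTR1 had 0.18 with YAP1, and TEAD1 had 0.58. Some pairs of members without a call had values of similar size. These were 0.88 for TEAD1 with LATS2, 0.86 for WWTR1 with TEAD3 and -0.94 for TEAD3 with AMOT. These values share the libraries, and are given as a description.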

How the data were processed

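RNA sequencing of 3 control and 3 knockdown libraries was analysed from 2 deposited tables. The deposited counts are whole reads per gene from HISAT2 and HTSeq on hg38, per the submitters' processing notes, with no versions. The deposited FPKM equalled count over length and library total as recomputed, and were used for levels between genes and not tested. The tables were joined by Ensembl identifier (19922 shared genes, 17188 of equal length), with 0 value columns left unmapped.

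The test was edgeR 4.0.16 in R 4.3.3 (TMM factors, filterByExpr, quasi-likelihood, Benjamini-Hochberg over 13629 genes, threshold 0.05) with table and group. Standard errors follow from the F statistic, and intervals cover 95%. Shares and log2 ratios used exact permutation tests over all 6 libraries, without the table. The fits were also run on counts simulated from the same kind of model, as a check of the code alone. No support for the changes of YAP1 and TEAD4 is drawn from it. Members, lists, tests and the table term were chosen with earlier results of these data known. No 2 libraries agreed within sampling noise (chi-square per gene 3.52 to 26.0 over genes with at least 20 reads). Named genes were the members, both targets, the called and most abundant genes of the wider list, 3 targets, and the 3 genes most like YAP1 and TEAD4 (mean of at least 10 CPM). AMOTL1, FAT4, VGLL4, ARID1A, AXL and the called markers were named after their values were seen. Alternatives were RLE factors, other filters, DESeq2 1.42.0, limma-voom 3.58.1, the group alone, the first table alone, left-out libraries and a replicate block. Replicate numbers were not taken as pairing (correlation of deviations 0.01).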

Additional observations from a re-analysis of the deposited data

How the results depend on the processing

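YAP1 and TEAD4 were lower under all 14 alternatives and passed in 8 and 9 of them. Without the table term their log2 fold changes were -0.245 and -0.353 (edgeR adjusted p = 1.00 for both), and in the first table alone -0.239 (0.111) and -0.342 (0.0530). Leaving out 1 library gave -0.310 to -0.195 for YAP1 and -0.411 to -0.295 for TEAD4. The first table alone and leaving out either library of the second table are near repeats of 1 comparison. The counts of passes are therefore not over independent alternatives. Replicate numbers are not shown to pair the libraries; with a replicate block (replicate 1, replicate 2 and the second table as blocks) YAP1 had -0.25 (0.00750) and TEAD4 -0.35 (0.00504).

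Of the 336 genes called (87 higher, 249 lower), edgeR without the table term called 0 in total, 0 higher and 0 lower, and 0 of the wider list (327 of all genes and 1 of the list at an unadjusted p under 0.05). The first table alone gave 154 (24 higher, 130 lower), DESeq2 204 (25 higher), and no filter 134 higher. Leaving out 1 library gave 98 to 420 in total, 13 to 130 higher and 85 to 290 lower.

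Members near 0 changed sign. TEAD3 had -0.00086 with RLE factors, -0.0011 with DESeq2, -0.013 in the first table and -0.045 to 0.059 with 1 library left out. Likewise AMOT ran from -0.054 to 0.0053, NF2 from -0.10 to 0.013 and WWTR1 from -0.10 to 0.013. The WWTR1 table difference ran from -0.068 to 0.075, and was 0.016 at a mean of at least 5 CPM, an alternative chosen after seeing the data. In percentage points, with 1 library left out, the LATS1 share difference ran from -2.29 to 3.94, TEAD1 from -2.94 to 3.26 (-0.35 in the first table), TEAD2 from -1.62 to 6.97, TEAD4 from -5.75 to -2.84 and TEAD3 from 1.06 to 1.73. As shares of reads with no length, TEAD4 had -2.30 and TEAD3 0.66. The LATS1 to LATS2 log2 ratio difference ran from -0.15 to 0.29. Leaving out a library unbalances the tables in these shares; the causes of the other moves were not tested.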
